A study of Mus musculus with 6 samples.

Results

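The transcripts described here are those of C2C12 mouse myoblasts in which the forkhead factor Foxk1 had been depleted by siRNA in fed culture, set against fed myoblasts given the siRNA called siNS. A gene row was taken where it carried a single symbol and reached 1 FPKM (fragments per kilobase of transcript, scaled to the mapped fragments of the library) in the control or in the knockdown library, and rows that combined symbols, rows of repeated symbols and short RNA rows were left out. This gave 10906 of the 22989 rows of the deposited tables. Of these, 213 entered only through the knockdown library and 188 only through the control, which were under 1 FPKM on the other side. The filter set the direction of these rows, wherever they are counted or named below. At the edge, Hist1h4d was kept with 1.002 FPKM in the control and 0.239 FPKM after knockdown, and Efcab2, with 0.995 and 0.686 FPKM, was not.

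C2C12 is an established myoblast line, with the strain label C3H, that divides in serum and forms multinucleate myotubes when serum is withdrawn. The control library (siNS non-starved) and the knockdown library (siFoxk1 non-starved) both came from cells kept in DMEM with fetal bovine serum, and polyadenylated RNA was sequenced from each. Another RNA library, from siNS cells starved for 4 h in a buffered salt solution, is used only for side-by-side levels, and the ChIP-seq of Foxk1 and Sin3A is not used here. Each group is 1 library, so sizes are described without a test. The siRNA sequences and the time after transfection are not stated in the labels.

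Foxk1 binds DNA through a forkhead domain and carries a forkhead-associated domain that binds phosphorylated partners. It recruits the Sin3 corepressor, a scaffold that brings histone deacetylases to promoters. In muscle it is known from satellite cells and proliferating myoblasts, and it has been studied with Sin3A as a regulator of autophagy and atrophy genes, which FoxO factors switch on in starvation. Foxk factors are also known for a positive part in glycolysis.

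Each deposited FPKM comes with a lower and an upper 95% limit, given here in parentheses or called the limits. A gene is called higher or lower apart where the limits of the 2 libraries did not overlap. Where a gene is followed by values from one level to another, the first is the control level and the second the knockdown level, both in FPKM, a scale already divided by transcript length. Log2 differences are log2 of (knockdown FPKM + 1) over (control FPKM + 1). The limits cannot stand for the spread between cultures. Of the genes given as apart, those whose limits lay within 10% of each other are the least secure, and their call is lost where a gap of 10% is asked for. They are Ankrd1, Ccng1, Cdkn1b, Col3a1, Cyr61, E2f1, Eif5a, Fads1, Fhl1, Fn1, Fosl1, Gdf11, Hspb1, Igfbp2, Jam2, Kdm3a, Lama5, Ltbp1, Map1lc3a, Nbr1, Nop56, Nupr1, Ogt, Pcna, Pdk4, Pgam1, Psmc1, Psmd2, Psmd3, Srf, Suv39h1, Tcf4, Tfrc, Tgfb2, Tpi1, Trim54, Vim and Zyx.

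Most rows lay close to the diagonal, as the scatter of the 2 libraries shows. The log2 difference had a median of 0.01 with its 5th and 95th percentiles at -0.63 and 0.71, and 9486 rows (87.0%) differed by less than 1.5-fold. The limits were apart upward in 996 rows (9.13%) and downward in 798 rows (7.32%). A difference of 2-fold or more on the log2 scale was found upward in 239 rows (2.19%) and downward in 122 rows (1.12%), and it came with limits apart in 232 (2.13%) and 119 (1.09%) of the rows. Differences of 4-fold or more with limits apart were few, with 22 rows upward and 11 downward. The share of rows apart varied with level. Upward it was 10.9% at a mean under 2 FPKM and 7.84% at 100 FPKM or more, and downward it was 10.7% under 2 FPKM, 5.98% from 20 to 50 FPKM and 7.84% at 100 FPKM or more.

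**Figure D1:**
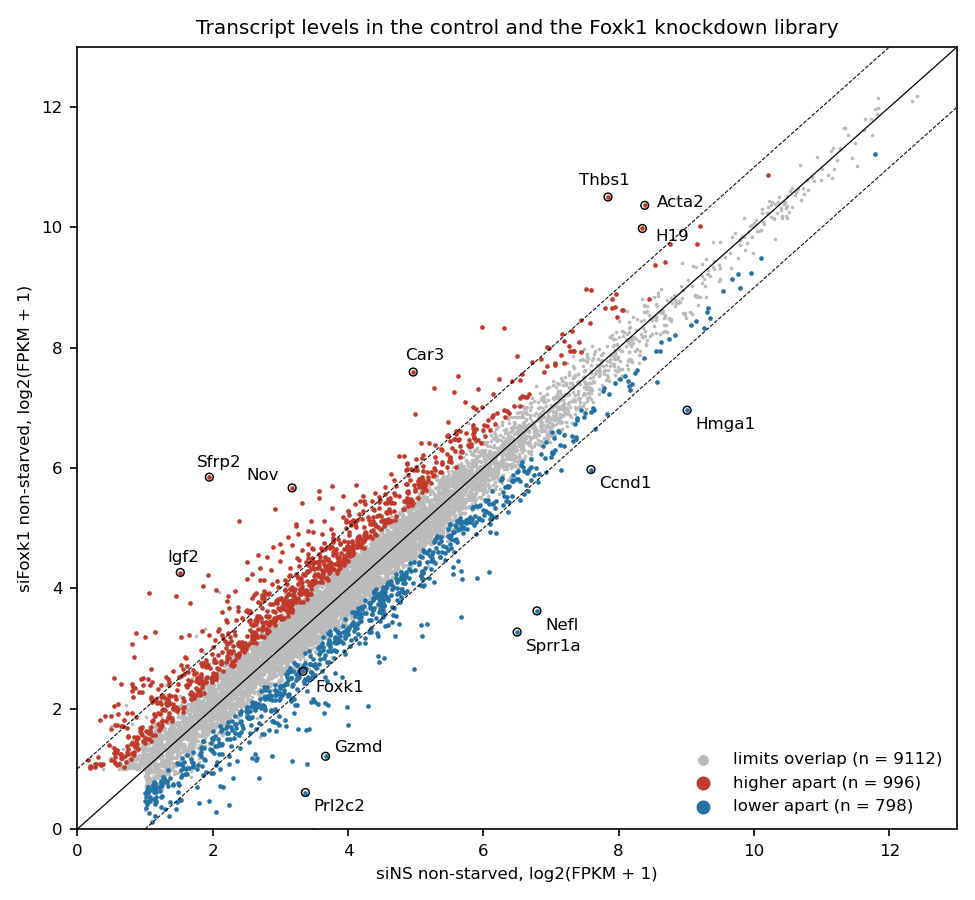
Each point is 1 of 10906 gene rows, with log2(FPKM + 1) in the control library (siNS non-starved) on the x axis and in the Foxk1 knockdown library on the y axis. The solid line marks equal levels and the dashed lines a 2-fold difference. Red points (996) are higher and blue points (798) lower in the knockdown library with limits apart, Sfrp2, Thbs1 and Acta2 lie far above the diagonal, and Nefl, Sprr1a and Hmga1 lie far below it.

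The targeted gene checked the labels. Foxk1 stood at 9.09 FPKM (7.76 to 10.4) with siNS and 5.15 FPKM (4.29 to 6.02) with siFoxk1. The knockdown level was the lower, its limits lay apart from those of the control, and the transcript was still present at 0.567 times the control level. Foxk2, its closest relative, stood at 33.7 FPKM (28.5 to 38.9) with siNS and 29.9 FPKM (24.9 to 34.8) with siFoxk1, with overlapping limits. The Sin3 scaffolds were at like levels in both libraries, with Sin3a from 18.997 to 19.9 FPKM and Sin3b from 84.3 to 88.4 FPKM. Of 29 expressed genes of the Foxk and Sin3 list, which includes the Mad and Mnt partners of Max, 6 were higher apart and Foxk1 alone was lower apart. With either rescaling of the libraries Sap30, a subunit of the Sin3 complex (from 14.9 to 9.48 FPKM), was lower apart too. The 6 were the Max-binding repressors Mxd4 (from 31.2 to 70.4 FPKM), Mnt (from 11.3 to 17.7 FPKM) and Mxd1 (from 1.67 to 3.06 FPKM), the histone H3 demethylases Kdm5b (from 5.61 to 11.7 FPKM) and Kdm5a (from 8.03 to 13.9 FPKM), and Ogt (from 15.7 to 26.6 FPKM), the enzyme that adds O-linked N-acetylglucosamine.

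Markers of the labelled cell type were present in both libraries. Of 6 myoblast markers, Myod1 (from 70.1 to 95.8 FPKM), Myf5 (from 16.8 to 17.5 FPKM), Des (from 485 to 520.02 FPKM), Cdh15 (from 73.5 to 55.6 FPKM) and Itga7 (from 117 to 122 FPKM) had overlapping limits and Vim, an intermediate filament protein, was lower apart (from 3544 to 2385 FPKM). Smooth muscle markers moved with the knockdown. Of 7, 5 were higher apart (Tagln, Acta2, Actg2, Lmod1 and Cnn1), Smtn had overlapping limits (from 44.5 to 40.6 FPKM), and Myh11, the defining myosin heavy chain, was near 0 (0.00324 and 0.0144 FPKM). The FPKM of the expressed smooth muscle markers summed to 506 in the control and 1842 in the knockdown library. Of 6 fibroblast markers, Dcn (from 9.64 to 30.003 FPKM) and Pdgfrb (from 17.6 to 45.5 FPKM) were higher apart, Col1a1 (from 32.1 to 46.5 FPKM) and Pdgfra (from 1.41 to 1.31 FPKM) had overlapping limits, and Lum and Thy1 were under 0.1 FPKM in both. The expressed fibroblast markers summed to 60.8 and 123 FPKM. No expressed marker of adipocytes, bone and cartilage, leukocytes or neurons was apart, and every endothelial and epithelial marker was under 1 FPKM. Control myoblasts already held Acta2 at 333 FPKM, and the part of other cells in these values was not tested. In bulk RNA, more or fewer cells of a type and more or less RNA per cell cannot be told apart.

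Muscle regulators were higher in part. Myog, the factor that starts terminal differentiation, stood at 14.2 FPKM (11.3 to 16.8) with siNS and 45.4 FPKM (35.97 to 53.9) with siFoxk1, and its limits were apart. Myod1, which acts before it, had overlapping limits at 70.1 FPKM (57.6 to 82.3) with siNS and 95.8 FPKM (76.9 to 114) with siFoxk1. Of 23 expressed factors of myogenesis, 4 were higher apart and 1 lower, with a median log2 difference of 0.24. Besides Myog the higher ones included the coactivator Eya4 (from 12.8 to 26.5 FPKM) and the E-protein Tcf4 (from 22.4 to 34.3 FPKM). The lower one was Msc (from 5.65 to 1.996 FPKM), a repressor that competes with MyoD. Over all rows, 9.13% were higher apart and 7.32% lower. With a 10% gap, 2 of the 23 factors were higher apart, and 689 of all 10906 rows. Of 25 expressed factors that hold back differentiation, 9 were higher apart, among them Sox8 (from 1.89 to 5.64 FPKM), Smad6 (from 4.86 to 11.3 FPKM), Hdac9 (from 1.25 to 3.47 FPKM), Snai1 (from 23.7 to 44.4 FPKM), Zeb1 (from 11.004 to 20.95 FPKM) and Id3 (from 246 to 411 FPKM). Only the histone methyltransferases Ezh2 (from 44.3 to 25.8 FPKM) and Suv39h1 (from 24.3 to 15.3 FPKM) of that list were lower apart.

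The transcripts of the fusion proteins myomaker and myomixer were higher. Tmem8c, which encodes myomaker, stood at 8.501 FPKM (6.95 to 10.1) with siNS and 21.7 FPKM (18.04 to 25.4) with siFoxk1, and Gm7325, which encodes its partner myomixer, stood at 0.764 FPKM (0.339 to 1.23) with siNS and 3.56 FPKM (2.43 to 4.72) with siFoxk1. Both sets of limits were apart, but Gm7325 was taken only through its level in the knockdown library. Of 26 expressed adhesion and fusion genes, 9 were higher apart and 2 lower. Cdh11 (from 1.95 to 5.32 FPKM), the metalloprotease Adam12 (from 4.93 to 9.68 FPKM) and the Hedgehog coreceptors Cdon (from 40.9 to 67.5 FPKM) and Boc (from 2.46 to 4.39 FPKM) were among the higher. The adhesion molecules Neo1 (from 17.9 to 11.1 FPKM) and Jam2 (from 49.5 to 32.9 FPKM) were lower.

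Many thin-filament genes were higher. In the thin filament and Z disc, 17 of 31 expressed genes were higher apart and 2 lower, with a median of 0.68. Acta1, skeletal alpha-actin, stood at 6.59 FPKM (4.99 to 8.21) with siNS and 39.04 FPKM (30.2 to 47.99) with siFoxk1, and Actc1, the cardiac actin that embryonic muscle also uses, at 7.16 FPKM (5.29 to 8.905) with siNS and 23.3 FPKM (17.7 to 28.8) with siFoxk1. Neither pair of limits overlapped. All 3 kinds of troponin subunit took part. For troponin I, Tnni1 went from 5.49 to 16.6 FPKM and Tnni2 from 2.597 to 8.84 FPKM. For the calcium-binding troponin C, Tnnc1 went from 12.7 to 28.9 FPKM and Tnnc2 from 3.21 to 8.84 FPKM. Of the tropomyosin-binding troponin T genes, Tnnt1 was higher apart (from 8.99 to 42.03 FPKM), and the cardiac form Tnnt2 had overlapping limits (from 88.4 to 77.9 FPKM). Tnnt3 stood at 3.27 FPKM (0.339 to 6.68) with siNS and 14.3 FPKM (5.403 to 23.5) with siFoxk1, with wide limits that overlapped. The Z disc and actin adaptors Pdlim3 (from 16.4 to 51.9 FPKM) and Synpo2 (from 5.79 to 14.6 FPKM) were also higher apart. The stretch-responsive Ankrd1 was lower apart (from 455 to 294 FPKM), as was Xirp2 (from 1.75 to 0.261 FPKM).

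In the thick filament and M band 14 of 34 listed genes were expressed, with a median of 0.17, and 4 were higher apart and 1 lower, the titin-binding Trim54 (from 2.67 to 1.54 FPKM). The light chains Myl1 (from 10.8 to 48.2 FPKM) and Mylpf (from 12.6 to 51.2 FPKM) led this group, with the embryonic heavy chain Myh3 at 1.36 FPKM (1.04 to 1.69) with siNS and 3.24 FPKM (2.55 to 4.04) with siFoxk1. The adult heavy chains Myh1, Myh2 and Myh4 stayed under 1 FPKM in both libraries. Titin, the giant spring protein (Ttn, from 1.42 to 3.41 FPKM), had overlapping limits, and nebulin, the thin-filament ruler (Neb, from 0.273 to 1.08 FPKM), was higher apart. The genes of excitation, the synapse and muscle energy supply gave 15 higher apart and 2 lower of 38. Of these 38, 5 were taken only through the knockdown library, Ryr1, Ryr3, Trdn and Ckm among them, and 1 only through the control. The filter set the direction of these rows. The release channels Ryr1 (from 0.455 to 1.405 FPKM) and Ryr3 (from 0.744 to 2.79 FPKM), triadin (Trdn, from 0.564 to 2.26 FPKM), the fetal acetylcholine receptor subunit Chrng (from 5.77 to 13.5 FPKM), the synaptic kinase Musk (from 10.3 to 17.4 FPKM) and its coreceptor Lrp4 (from 5.15 to 9.998 FPKM) were higher. Muscle creatine kinase, Ckm, went from 0.324 to 2.67 FPKM, while brain creatine kinase, Ckb, was lower apart (from 82.5 to 51.3 FPKM). The muscle enolase Eno3 was also lower apart (from 285 to 164 FPKM).

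**Figure D2:**
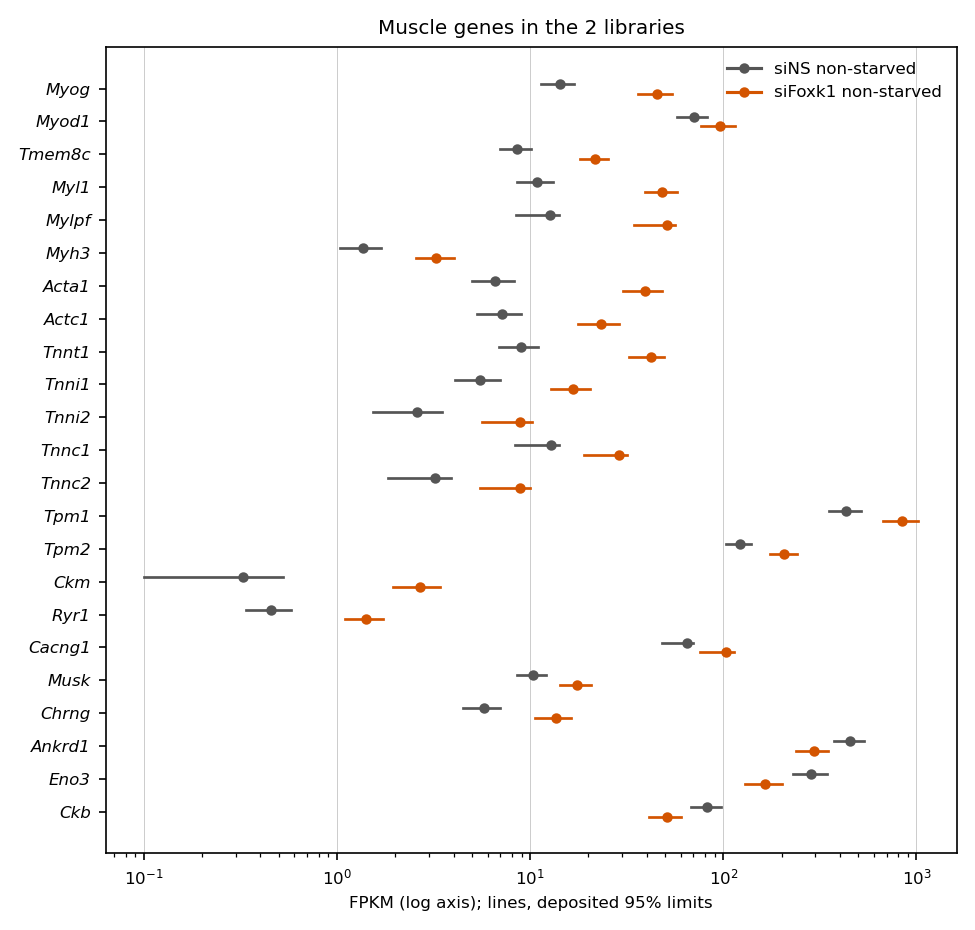
FPKM on a log axis of 23 muscle genes in the control (grey) and the Foxk1 knockdown library (orange), with lines for the deposited 95% limits. Acta1, Tnnt1, Myl1 and Mylpf lie well to the right in the knockdown library, Myod1 overlaps, and Ankrd1, Eno3 and Ckb lie to the left.

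A pair of promoters from this group is shown because they hold the letters that muscle factors are known to read. They are from RefSeq, build GRCm38.p6, from 250 bases before to 50 bases after the annotated start, with matches in capitals. In Acta1, on the minus strand at chr8:123894726-123895025, the capitals are an E-box CAGCTG, the site of MyoD-family factors, beginning at position -221 from the start, and a CArG box, the site of SRF, beginning at -73. In Klhl41, which encodes a sarcomere-stabilising protein and went from 2.097 to 4.56 FPKM, on the plus strand at chr2:69669870-69670169, they are an E-box at -127 and a MEF2 box at -63.
Acta1: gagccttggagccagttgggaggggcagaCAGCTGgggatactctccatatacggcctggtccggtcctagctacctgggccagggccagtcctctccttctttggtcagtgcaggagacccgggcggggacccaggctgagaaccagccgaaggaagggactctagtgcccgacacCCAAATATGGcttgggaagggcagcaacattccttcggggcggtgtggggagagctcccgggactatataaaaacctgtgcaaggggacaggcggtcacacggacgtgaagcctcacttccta
Klhl41: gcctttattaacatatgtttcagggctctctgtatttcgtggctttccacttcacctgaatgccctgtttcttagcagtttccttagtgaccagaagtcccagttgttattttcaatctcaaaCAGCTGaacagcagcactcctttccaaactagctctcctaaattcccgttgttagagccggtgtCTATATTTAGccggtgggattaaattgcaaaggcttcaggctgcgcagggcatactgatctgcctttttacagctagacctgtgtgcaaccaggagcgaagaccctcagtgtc
On either strand, the E-box CAGCTG was in 43.9% of 41 promoters of the 2 sarcomere lists, in 16.3% of all 32851 promoters of the table and in 1666 of the 11100 promoters of the rows used here. The MEF2 box was in 17.1%, 3.19% and 1.57%, and the CArG box in 9.76%, 1.63% and 1.36%. Sarcomere genes with and without these letters were not set side by side. Among all rows at 2-fold or more with limits apart, the MEF2 box was in 2.02% of promoters upward and 4.39% downward. The CArG box was in 7.58% and 0%, and the E-box in 25.3% and 18.4%.

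The smooth-muscle-type contractile genes and targets of SRF had no lower member apart. Of 42 expressed, 20 were higher apart, with a median of 0.47. Acta2, smooth muscle actin, had among the largest gains of FPKM of the rows with limits apart. It stood at 333 FPKM (266 to 382) with siNS and 1321 FPKM (1034 to 1593) with siFoxk1. Its relative Actg2 stood at 46.5 FPKM (36.2 to 52.4) with siNS and 153 FPKM (119 to 177) with siFoxk1, and both were well above the control limits. All 3 calponins, actin-binding proteins, were higher apart, Cnn1 from 3.05 to 6.11 FPKM, Cnn2 from 238 to 449 FPKM and Cnn3 from 372 to 661 FPKM. So were caldesmon (Cald1, from 173 to 352 FPKM), the regulatory light chain Myl9 (from 124 to 254 FPKM), the LIM proteins Csrp1 (from 222 to 404 FPKM), Csrp2 (from 114 to 224 FPKM) and Fhl2 (from 58.4 to 125 FPKM), the focal adhesion proteins Vcl (from 154 to 245 FPKM) and Zyx (from 568 to 848 FPKM), and Srf itself (from 34.6 to 48.8 FPKM). The cytoplasmic actins Actb (from 3186 to 3587 FPKM) and Actg1 (from 2689 to 2975 FPKM) had overlapping limits, as had the SRF coactivators Mkl1 (from 36.9 to 34.9 FPKM) and Mkl2 (from 9.09 to 9.902 FPKM). Smooth muscle markers, among them Tagln, Acta2, Actg2 and Cnn1, are members of this list too, so the marker sums given above are no separate observation. The part of other cells in these values was not tested. The promoter of Myl9, on the plus strand at chr2:156775214-156775513, is shown for its CArG box at -161.
Myl9: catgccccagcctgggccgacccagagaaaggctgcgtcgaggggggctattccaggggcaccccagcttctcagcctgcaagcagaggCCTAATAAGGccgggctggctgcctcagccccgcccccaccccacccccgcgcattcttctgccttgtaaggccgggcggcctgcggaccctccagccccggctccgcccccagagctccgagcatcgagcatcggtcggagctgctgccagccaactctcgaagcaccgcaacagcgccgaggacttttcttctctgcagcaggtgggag
The CArG box was in 21.3% of the 47 promoters of this list. The members with it and limits apart upward were Fhl2, Myl9, Cnn2, Vcl, Fhl1 and Srf. Myl6, Filip1l and Actg1 also had it, with overlapping limits. Members without the box were not set beside these.

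Matrix genes did not all move alike. Of 9 expressed fibrillar and associated collagens, 6 were higher apart and none was lower, with a median of 0.71. Col12a1, a collagen on the surface of fibrils, stood at 30.8 FPKM (26.4 to 35.1) with siNS and 118 FPKM (98.9 to 137) with siFoxk1, and Col5a2, a chain that sets fibril diameter, at 89.2 FPKM (76.4 to 102) with siNS and 231 FPKM (193 to 268) with siFoxk1. Both exceeded the control limits. The chains of collagen I did not move equally, Col1a2 being higher apart (from 239 to 404 FPKM) and Col1a1 overlapping (from 32.1 to 46.5 FPKM). Col3a1 went from 249.7 to 364 FPKM with limits apart. Small leucine-rich proteoglycans, which coat collagen fibrils, had some of the largest differences. Prelp went from 1.75 to 13.7 FPKM, Ogn from 61.9 to 326 FPKM, Fmod from 1.21 to 8.69 FPKM, Dcn from 9.64 to 30.003 FPKM and Bgn from 249 to 473 FPKM, all apart. Their relative Aspn (from 0.643 to 3.16 FPKM) had overlapping limits. Of 36 matrix glycoproteins and proteoglycans, 19 were higher apart and only Fbln1 was lower (from 21.3 to 13.01 FPKM). The fibulins Fbln7 (from 1.09 to 14.2 FPKM) and Fbln5 (from 2.55 to 5.78 FPKM) were higher. So were the microfibril genes Mfap2 (from 0.927 to 4.65 FPKM), Mfap5 (from 0.513 to 3.22 FPKM) and Fbn1 (from 22.3 to 50.3 FPKM). Elastin, Eln, was near 0 in both libraries (0.00381 and 0.00476 FPKM). Fibronectin, Fn1, went from 589 to 1041 FPKM.

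The list of basement membrane genes and other collagens went both ways, with 7 of 21 higher apart, 8 lower and a median of -0.24. It holds collagens outside the basement membrane, so these counts are not those of the basement membrane alone. No laminin chain was higher apart. The gamma chain Lamc1 (from 39.6 to 25.9 FPKM), the beta chains Lamb1 (from 79.8 to 42.7 FPKM) and Lamb3 (from 8.604 to 4.73 FPKM) and the alpha chain Lama5 (from 22.5 to 15.3 FPKM) were lower apart, while Lama2, the alpha chain of muscle laminin, had overlapping limits (from 5.89 to 7.62 FPKM). The linkers of laminin and collagen IV went opposite ways. Nid1 stood at 226 FPKM (194 to 258) with siNS and 118 FPKM (99.6 to 136) with siFoxk1 and Nid2 at 28.3 FPKM (22.997 to 33.5) with siNS and 67.2 FPKM (54.4 to 79.98) with siFoxk1, so that the first was lower and the second higher, both with limits apart. Collagen VI, a microfibril built of 3 chains, was also divided. Col6a1 (from 30.5 to 61.8 FPKM) and Col6a2 (from 9.59 to 25.6 FPKM) were higher and Col6a3 (from 42.2 to 21.1 FPKM) was lower apart. Perlecan, Hspg2, was higher (from 56.5 to 104 FPKM), and Col8a2 went from 4.23 to 33.7 FPKM. Integrin subunits were split as well, with Itga6, a laminin receptor subunit, lower (from 27.2 to 15.98 FPKM), Itgb7 lower (from 9.49 to 1.12 FPKM), and Itga11 (from 0.412 to 2.68 FPKM), Itgb5 (from 35.6 to 84.4 FPKM) and Itgb3 (from 14.8 to 34.2 FPKM) higher, in a list of 23 with 5 higher and 2 lower apart.

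**Figure D3:**
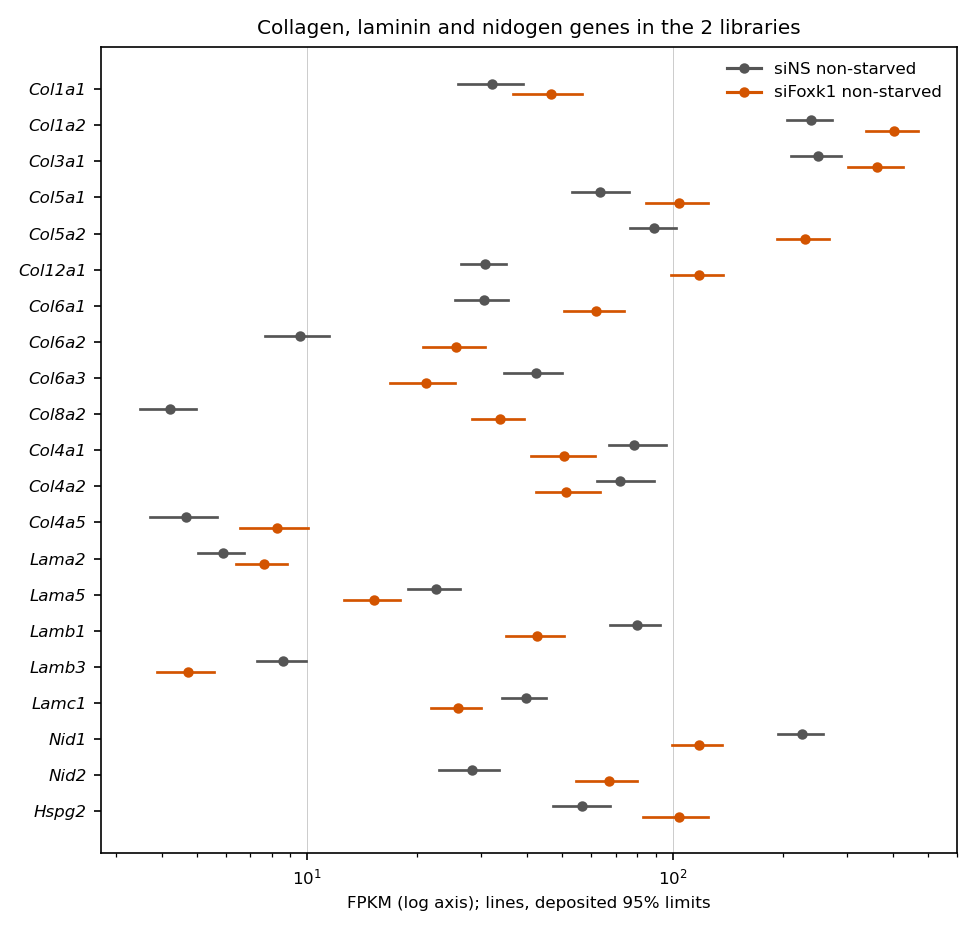
FPKM on a log axis of 21 collagen, laminin, nidogen and perlecan genes in the control (grey) and the Foxk1 knockdown library (orange), with lines for the deposited 95% limits. The fibrillar collagens, Col12a1, Col6a1, Col6a2, Col8a2, Nid2 and Hspg2 lie to the right in the knockdown library, and Col6a3, Nid1 and most laminin chains lie to the left.

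Transcripts of enzymes that cross-link and cut the matrix were divided between near relatives. The lysyl oxidase Lox went from 158 to 309 FPKM and Loxl1 from 44.6 to 71.6 FPKM, both higher apart, and Loxl2 was lower apart at 46.5 FPKM (39.8 to 53.2) with siNS and 23.4 FPKM (19.7 to 27.1) with siFoxk1. The collagen propeptidase Adamts2 was higher (from 4.999 to 17.8 FPKM). Of 33 matrix proteases and inhibitors, 11 were higher apart and 2 lower. The gelatinase Mmp2 (from 59.8 to 158 FPKM), its membrane activator Mmp14 (from 146 to 275 FPKM) and the inhibitor Timp3 (from 73.9 to 178 FPKM) were higher, and the stromelysin Mmp10 (from 3.74 to 0.327 FPKM) and the plasminogen activator inhibitor Serpinb2 (from 11.7 to 3.27 FPKM) were lower. In the collagen processing list, 7 of 25 were higher apart and 2 lower.

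Transcripts of secreted signals of several families were higher in the knockdown library. In the TGF-beta axis, 20 of 46 expressed genes were higher apart and 2 lower, with a median of 0.38. Thbs1, an activator of latent TGF-beta, had the largest gain of FPKM among rows with limits apart. It stood at 228 FPKM (197 to 260.2) with siNS and 1454 FPKM (1151 to 1756) with siFoxk1. The ligands Tgfb1 (from 46.3 to 88.5 FPKM), Tgfb2 (from 6.58 to 9.47 FPKM), Tgfb3 (from 21.02 to 44.8 FPKM), Inhba (from 20.1 to 46.9 FPKM), Inhbb (from 6.76 to 12.5 FPKM) and Bmp4 (from 6.01 to 22.1 FPKM) were higher apart. So were the extracellular proteins Fst (from 3.66 to 8.61 FPKM), which traps activin, and Fstl1 (from 183 to 500.5 FPKM) and the intracellular inhibitors Smad6 (from 4.86 to 11.3 FPKM), Smad7 (from 10.8 to 17.4 FPKM) and Skil (from 13.8 to 25.96 FPKM). The receptors Tgfbr1 (from 6.46 to 8.26 FPKM) and Tgfbr2 (from 35.8 to 29.4 FPKM) had overlapping limits. The lower ones were Gdf11 (from 16.2 to 9.14 FPKM) and the latency protein Ltbp1 (from 49.4 to 34.9 FPKM). Of 32 CCN genes and Hippo pathway targets, 16 were higher apart and 2 lower, with a median of 0.50. All 5 CCN genes expressed were higher, Nov from 8.03 to 49.9 FPKM, Wisp2 from 0.414 to 2.18 FPKM, Wisp1 from 47.4 to 93.4 FPKM, Ctgf from 154 to 261 FPKM and Cyr61 from 161 to 246 FPKM. The coactivators Yap1 (from 32.8 to 37.8 FPKM) and Wwtr1 (from 51.2 to 59.5 FPKM) had overlapping limits, and Ankrd1, which belongs to this list too, was lower.

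In the Wnt pathway, 13 of 33 were higher apart and 2 lower. The secreted inhibitors went different ways. Sfrp2 had the highest log2 difference of all rows with limits apart, at 2.87 FPKM (2.14 to 3.55) with siNS and 56.7 FPKM (44.3 to 66.1) with siFoxk1. Dkk3 (from 1.67 to 5.21 FPKM) and Sfrp1 (from 1.61 to 3.66 FPKM) were also higher, while Dkk2 was lower at 7.998 FPKM (6.701 to 9.27) with siNS and 1.19 FPKM (0.899 to 1.48) with siFoxk1 and the membrane inhibitor Apcdd1 was lower (from 6.68 to 2.09 FPKM). The nuclear partners of beta-catenin Lef1 (from 7.58 to 15.9 FPKM), Tcf7 (from 15.2 to 29.5 FPKM) and Tcf7l1 (from 28.4 to 44.6 FPKM) were higher, with beta-catenin, Ctnnb1, at from 178 to 182 FPKM. In the Notch pathway 7 of 23 were higher and none lower apart, among them Lfng (from 24.8 to 47.05 FPKM), Notch2 (from 26.02 to 45.5 FPKM) and the ligand Jag1 (from 1.68 to 3.25 FPKM). The IGF axis and imprinted growth genes gave 9 higher and 5 lower apart of 29. Igf1 stood at 0.755 FPKM (0.251 to 1.34) with siNS and 7.397 FPKM (4.64 to 10.2) with siFoxk1, and Igf2 and the neighbouring noncoding H19 went from 1.87 to 18.2 FPKM and from 325 to 1011 FPKM. The binding proteins did not move together, with Igfbp3 (from 4.67 to 20.7 FPKM), Igfbp4 (from 2.01 to 6.24 FPKM) and Igfbp7 (from 193 to 499 FPKM) higher and Igfbp2 lower (from 865 to 599 FPKM). Pappa, a protease that cleaves IGF-binding proteins, was higher (from 1.14 to 5.31 FPKM), and its inhibitor Stc2 was lower (from 11.5 to 6.18 FPKM). The receptor Igf1r had overlapping limits (from 8.41 to 11.4 FPKM).

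Of 54 other secreted growth factors and cytokines, 19 were higher apart and 3 lower. Gas6, the ligand of Axl, went from 2.62 to 15.5 FPKM, the chemokine Cxcl12 from 10.2 to 29.6 FPKM, endothelin Edn1 from 2.84 to 8.304 FPKM, Hgf from 17.5 to 34.8 FPKM and the axon guidance ligands Sema3d from 5.51 to 19.3 FPKM and Slit2 from 3.28 to 9.02 FPKM. The EGF-receptor ligand Areg (from 22.4 to 9.38 FPKM) and the alarmin Il33 (from 6.41 to 2.49 FPKM) were lower. Among the immediate early genes, 9 of 39 were higher and 6 lower apart, and members of the AP-1 family took opposite sides. Junb (from 122 to 258 FPKM), Fosl2 (from 14.97 to 26.2 FPKM) and Fos (from 1.98 to 4.98 FPKM) were higher, Fosl1 (from 24.6 to 11.8 FPKM) was lower, and Jun had overlapping limits (from 76.7 to 78.98 FPKM). Genes known to follow ERK activity gave 5 higher and 7 lower of 40. Hmga1, an architectural chromatin protein, had the second largest loss of FPKM among rows with limits apart. It stood at 515 FPKM (415 to 623) with siNS and 124 FPKM (98.3 to 149.96) with siFoxk1. Etv4 (from 45.8 to 19.6 FPKM) and the phosphatase Dusp4 (from 77.4 to 40.7 FPKM) were lower. Dusp6 (from 33.2 to 35.1 FPKM) and Spry2 (from 39.04 to 46.3 FPKM) had overlapping limits. Spry1 (from 1.36 to 4.28 FPKM) and the receptors Pdgfrb (from 17.6 to 45.5 FPKM) and Fgfr1 (from 34.99 to 60.5 FPKM) were higher.

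Genes of the cell cycle were lower in the knockdown library, with few exceptions. In the replication list, 34 of 60 were lower apart and none was higher, and 59 had a lower value in the knockdown library. In the list of mitotic kinases, cyclins and checkpoint genes, all 41 had a lower value and 34 were lower apart, with a median of -0.75. In the kinetochore, spindle and cytokinesis list, 62 of 63 had a lower value and 43 were lower apart, with a median of -0.63. Each difference was modest, as the histograms of these lists show, with 1, 2 and 3 genes at 2-fold or more in the 3 lists.

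Among G1 regulators, 10 of 27 were lower apart, and only Mycl1 was higher (from 3.702 to 13.7 FPKM). The D-type cyclins were not alike. Ccnd1 stood at 192 FPKM (166 to 218) with siNS and 61.96 FPKM (52.6 to 71.3) with siFoxk1, Ccnd2 was lower (from 11.3 to 7.27 FPKM), and Ccnd3 had overlapping limits (from 93.3 to 115 FPKM). The activating E2f1 (from 26.5 to 18.4 FPKM) and E2f2 (from 9.68 to 4.57 FPKM) and the repressing E2f7 (from 13.5 to 8.63 FPKM) and E2f8 (from 27.1 to 14.4 FPKM) were lower, as was Fbxo5, an inhibitor of the anaphase-promoting complex (from 33.6 to 15.4 FPKM). None of 5 expressed inhibitors of cyclin-dependent kinases was higher apart. Cdkn1a, which encodes p21, stood at 169 FPKM (144 to 193) with siNS and 189 FPKM (159 to 219) with siFoxk1, with overlapping limits, and Cdkn1b, which encodes p27, was lower apart at 27.3 FPKM (20.6 to 29.8) with siNS and 17.5 FPKM (12.7 to 19.2) with siFoxk1, a call lost with a 10% gap. In origin licensing, Cdt1 went from 26.1 to 12.6 FPKM, its inhibitor Gmnn from 58.5 to 28.9 FPKM and Cdc6 from 10.02 to 5.02 FPKM, and 5 of the 6 subunits of the MCM helicase were lower apart, Mcm7 having overlapping limits (from 81.6 to 54.9 FPKM). At the fork, Cdc45 (from 25.5 to 12.96 FPKM), Gins1 (from 20.3 to 10.4 FPKM), Fen1 (from 33.2 to 18.5 FPKM), Pcna (from 303 to 191 FPKM) and the chromatin assembly factor Chaf1a (from 28.4 to 14.6 FPKM) were lower. The nucleotide enzymes Tk1 (from 112 to 59.1 FPKM), Rrm2 (from 285 to 157 FPKM) and Dut (from 40.0002 to 22.1 FPKM) were among 9 of 31 that were lower apart, and 15 of 45 genes of recombination repair and checkpoints were lower with none higher, 8 of them with a 10% gap.

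In mitosis, the kinases Cdk1 (from 84.7 to 45.6 FPKM), Plk1 (from 69.3 to 35.5 FPKM), Aurka (from 47.4 to 27.3 FPKM) and Aurkb (from 39.3 to 23.4 FPKM) and the cyclins Ccna2 (from 104 to 54.9 FPKM) and Ccnb1 (from 97.9 to 51.5 FPKM) were lower apart. So were condensin subunits (Ncapg, from 20.99 to 11.2 FPKM, and Smc4, from 100.3 to 61.1 FPKM), the centromere histone Cenpa (from 77.7 to 47.6 FPKM) and the kinetochore proteins Cenpn (from 19.2 to 8.66 FPKM) and Ska1 (from 7.62 to 3.71 FPKM). The cytokinesis proteins Anln (from 92.5 to 43.4 FPKM), Prc1 (from 95.96 to 46.3 FPKM) and Ect2 (from 33.3 to 18.3 FPKM) showed the same order.

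**Figure D4:**
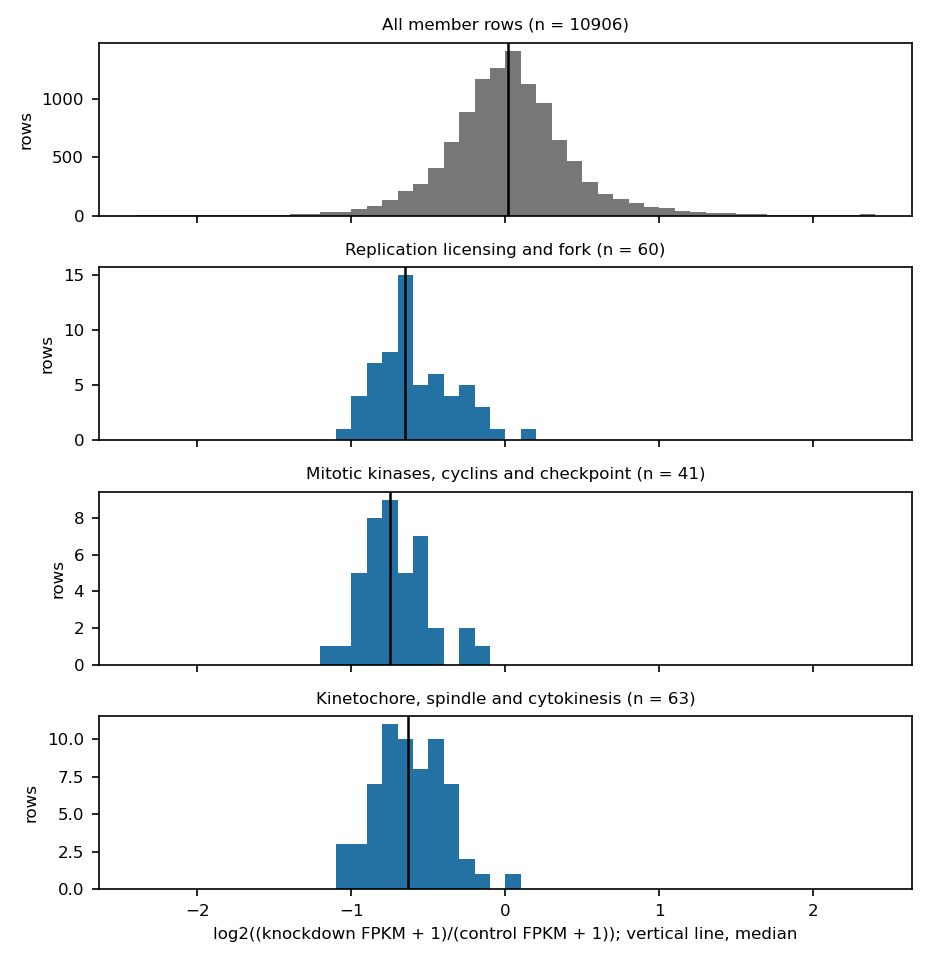
Histograms of the log2 difference between the Foxk1 knockdown and the control library in bins of 0.1, with counts of rows on the y axis, for all 10906 rows and for the 60 replication, 41 mitotic kinase and checkpoint and 63 kinetochore and spindle genes, with vertical lines at the medians. The 3 lists lie almost wholly below 0, at medians of -0.65, -0.75 and -0.63, while all rows centre at 0.01.

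A promoter from each phase is shown because their letters are those through which cell cycle complexes are known to act. Cenpn, on the plus strand at chr8:116921490-116921789, has in capitals a CCAAT box, read here on the other strand, at -18 and a cell cycle homology region (CHR, TTTGAA or TTCGAA on either strand) at -9. Cdt1, on the plus strand at chr8:122567765-122568064, has an E2F match (TTTCCCGC or TTTGGCGC) at base 33 after the start.
Cenpn: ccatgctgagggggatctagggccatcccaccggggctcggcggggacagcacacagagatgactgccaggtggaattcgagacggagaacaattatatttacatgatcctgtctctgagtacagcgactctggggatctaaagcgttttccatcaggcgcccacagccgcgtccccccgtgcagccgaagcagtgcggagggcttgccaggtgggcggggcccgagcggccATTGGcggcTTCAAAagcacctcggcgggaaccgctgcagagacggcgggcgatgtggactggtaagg
Cdt1: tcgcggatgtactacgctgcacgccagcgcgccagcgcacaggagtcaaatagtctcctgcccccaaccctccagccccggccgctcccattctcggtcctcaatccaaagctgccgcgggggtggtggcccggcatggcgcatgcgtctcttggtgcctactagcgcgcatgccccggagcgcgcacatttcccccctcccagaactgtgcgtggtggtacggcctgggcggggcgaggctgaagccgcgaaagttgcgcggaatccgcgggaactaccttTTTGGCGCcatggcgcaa
A CHR was in 64.2% of the 95 promoters of the 2 mitosis lists, in 19.2% of all promoters and in 13.7% of those of the rows used, and CCAAT in 68.4%, 37.4% and 37.9%. The E2F letters were in 27.4% of the 62 replication promoters, in 1.56% of all and in 3.04% of those of the rows used. The median log2 difference was -0.68 in 57 mitosis genes with a CHR, 44 of them lower apart, and -0.63 in 28 without, 19 of them lower apart. In replication it was -0.61 in 17 genes with the E2F letters and -0.66 in 33 without.

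**Figure D5:**
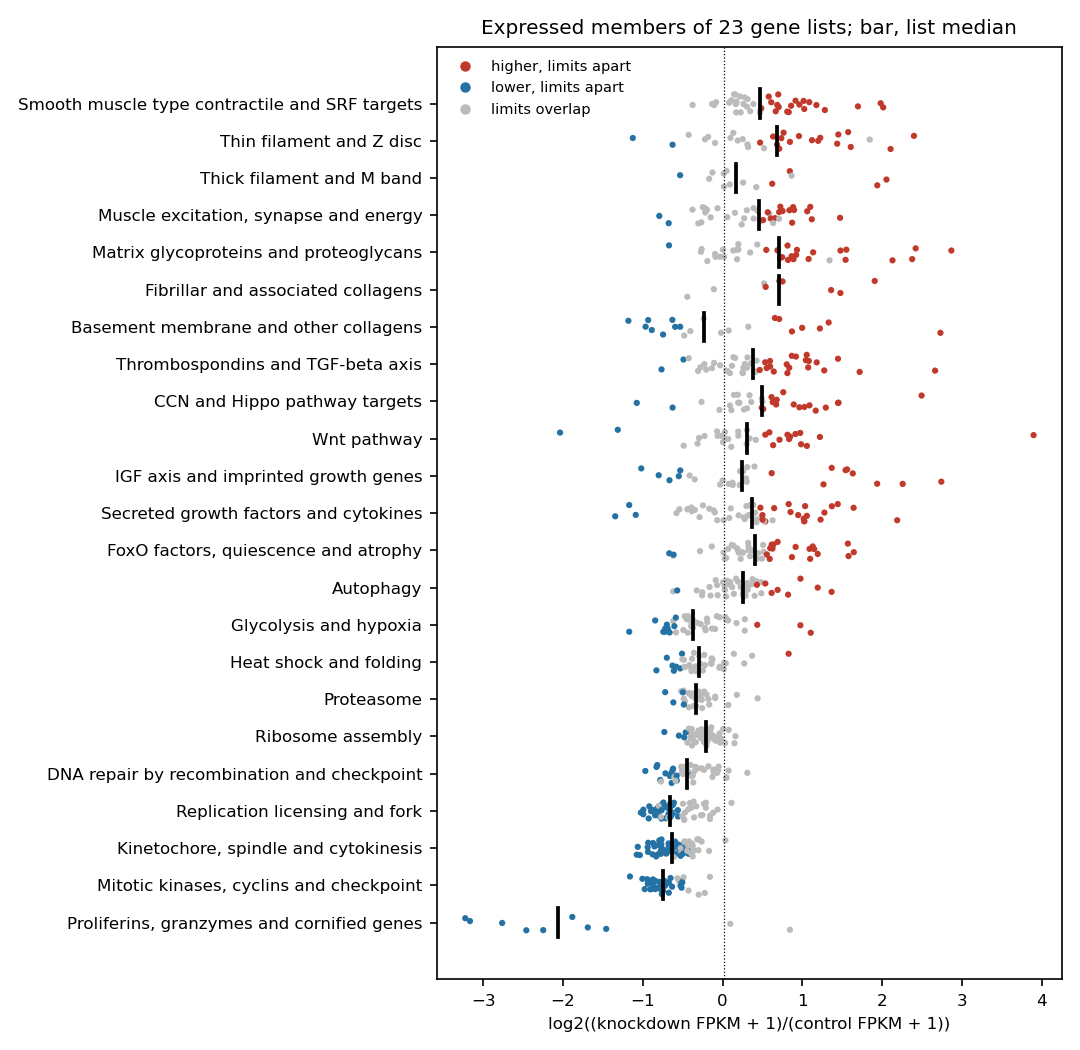
Log2 difference between the Foxk1 knockdown and the control library for the expressed members of 23 gene lists, with each point a gene, the black bar the list median and the dotted line the median of all rows (0.01). Contractile, matrix and secreted-signal lists lie to the right with medians up to 0.71, and cell cycle, glycolysis and folding lists lie to the left. The list of basement membrane genes and other collagens spreads to both sides.

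FoxO factors, genes of quiescence and genes of atrophy were higher in part. Of 44 expressed, 17 were higher apart and 2 lower, with a median of 0.40. Foxo1 went from 6.08 to 14.1 FPKM, whereas Foxo3 (from 7.31 to 8.44 FPKM) and Foxo4 (from 7.22 to 7.63 FPKM) had overlapping limits. Fbxo32, the atrophy ubiquitin ligase atrogin-1, stood at 8.59 FPKM (7.102 to 9.97) with siNS and 28.99 FPKM (23.7 to 34.3) with siFoxk1, while Trim63, the other atrophy ligase, was at 0.0979 and 0.279 FPKM, under the expression limit in both. The plasma selenoprotein Sepp1 (from 3.62 to 12.8 FPKM), the antiproliferative Btg2 (from 12.6 to 39.4 FPKM), Klf9 (from 4.89 to 10.1 FPKM), Sesn3 (from 9.75 to 18.6 FPKM), Pdk4 (from 16.6 to 26.4 FPKM) and Txnip (from 12.5 to 19.3 FPKM) were higher apart. Ccng1 (from 66.6 to 41.5 FPKM) was lower. Ypel3, a small protein linked to growth arrest, stood at 14.6 FPKM (11.3 to 18.3) with siNS and 33.3 FPKM (25.9 to 40.6) with siFoxk1, and its promoter, on the plus strand at chr7:126776713-126777012, is shown for the forkhead letters GTAAACA at base 26 after the start.
Ypel3: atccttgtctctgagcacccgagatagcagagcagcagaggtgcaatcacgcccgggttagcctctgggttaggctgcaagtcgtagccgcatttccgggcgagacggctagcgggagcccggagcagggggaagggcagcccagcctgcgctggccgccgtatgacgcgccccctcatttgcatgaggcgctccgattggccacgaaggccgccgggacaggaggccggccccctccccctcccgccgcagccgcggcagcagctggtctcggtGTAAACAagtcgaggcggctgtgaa
GTAAACA, on either strand, was in 16.0% of the 50 promoters of this list, in 3.65% of all promoters and in 2.49% of those of the rows used. Of 8 members with it, 5 were higher apart (Sepp1, Ypel3, Hbp1, Klf9 and Txnip), with a median of 0.75, and of 31 without it 11 were higher and 2 lower, with a median of 0.43. Over all rows higher apart the share of promoters with GTAAACA was 3.92%, and over rows lower apart 2.07%. Among rows at 2-fold or more with limits apart the order was the opposite, with 3.54% (7 of 198) upward and 5.26% (6 of 114) downward.

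Autophagy genes showed smaller differences. Of 47 expressed, 8 were higher apart and 1 lower, with a median of 0.25, where 9.13% of all rows were higher apart. With a gap of 10% asked for between the limits, 5 of the 47 were higher apart, and 689 of all 10906 rows. Calcoco1, a selective autophagy receptor, had the largest difference at 27.4 FPKM (21.7 to 33.9) with siNS and 72.3 FPKM (55.3 to 90.7) with siFoxk1. Wdr45 (from 10.8 to 19.9 FPKM), which binds phosphoinositides on the forming membrane, Map1lc3a (from 53.7 to 82.7 FPKM) and Nrbf2 (from 10.1 to 20.9 FPKM), a subunit of the class III lipid kinase complex, were higher apart, and the receptor Nbr1 was lower (from 23.9 to 15.8 FPKM). The receptor Sqstm1 (from 246 to 197 FPKM), Becn1 (from 42.01 to 52.2 FPKM), Atg5 (from 16.1 to 16.5 FPKM), Atg7 (from 9.296 to 9.51 FPKM) and the regulators Tfeb (from 4.42 to 3.55 FPKM) and Tfe3 (from 28.4 to 32.7 FPKM) had overlapping limits. Of 43 lysosomal genes, 7 were higher apart, with Ctso (from 2.03 to 6.19 FPKM) and Ctsf (from 1.48 to 4.8004 FPKM) leading, and Galc was lower (from 10.04 to 4.71 FPKM). The lysosomal count was 3 with a 10% gap. The proteasome had 4 lower apart of 34, Psma1, Psmc1, Psmd3 and Psmd2, with a median of -0.33, and with a 10% gap Psma1 alone was lower.

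Transcripts of enzymes of successive steps of glycolysis were lower. Of 42 expressed genes of glycolysis and hypoxia, 11 were lower apart and 3 higher, with a median of -0.37. Pfkl, which commits sugar to the pathway, went from 55.1 to 33.6 FPKM, followed by Tpi1 (from 390.3 to 246 FPKM), Pgk1 (from 635 to 385 FPKM), Pgam1 (from 426 to 284 FPKM), Eno1 (from 536 to 332 FPKM) and Ldha (from 748 to 492 FPKM). The lactate exporter Slc16a3 (from 13.5 to 7.97 FPKM) was lower too. Pkm (from 1265 to 899 FPKM), Gpi1 (from 163 to 119 FPKM), Hk1 (from 65.4 to 48.1 FPKM) and Hk2 (from 14.4 to 10.9 FPKM) had overlapping limits, and Pfkp had a higher value in the knockdown library (from 29.4 to 35.8 FPKM), also with overlap. The higher ones were Ndrg1 (from 33.6 to 73.4 FPKM), Pdk2 (from 3.997 to 8.83 FPKM), a brake on pyruvate dehydrogenase, and Kdm3a (from 9.53 to 13.2 FPKM). The citric acid cycle and respiratory chain had 2 of 52 apart, both lower, Esrra (from 20.6 to 8.596 FPKM), a nuclear receptor of mitochondrial genes, and cytochrome c, Cycs (from 90.3 to 55.5 FPKM).

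Other metabolic and housekeeping lists went both ways or held few genes apart. Of all rows, 9.13% were higher apart and 7.32% lower, and counts near these shares say nothing particular about a list. Serine and amino acid response genes gave 6 higher and 7 lower apart of 35. The serine pathway enzymes Psat1 (from 164 to 90.2 FPKM) and Shmt2 (from 80.8 to 45.1 FPKM) and the mitochondrial folate enzyme Aldh1l2 (from 13.4 to 7.59 FPKM) were lower, and Chac1 (from 11.6 to 20.1 FPKM) and Nupr1 (from 58.5 to 99.5 FPKM) were higher, with their regulator Atf4 overlapping (from 200.3 to 247 FPKM). In lipid synthesis, 4 of 35 were lower apart and 1 higher, with the desaturases Fads2 (from 71.2 to 39.3 FPKM) and Fads1 (from 43.6 to 30.6 FPKM) and the elongase Elovl6 (from 12.9 to 6.17 FPKM) among the lower. Heat shock and folding genes gave 7 lower apart of 37, with Hsph1 (from 39.995 to 22.1 FPKM) and Hsp90aa1 (from 562 to 346 FPKM), against 1 higher, Dnajb5 (from 5.44 to 10.4 FPKM). The secretory pathway had 5 of 42 higher and none lower, led by Herpud1 (from 28.2 to 65.8 FPKM) and the collagen-secretion regulator Creb3l1 (from 93.9 to 189 FPKM). Ribosome assembly had 4 of 48 lower, with Nop56 (from 119 to 71.3 FPKM), near the 7.32% of all rows, and none with a 10% gap. Of 19 interferon genes 5 were higher apart, and of 37 genes of the p53 response and apoptosis 6 were higher, with Fas (from 2.15 to 8.38 FPKM) and Bmf (from 1.28 to 4.03 FPKM), and 4 were lower, with Gdf15 (from 45.9 to 17.9 FPKM), while Trp53 had overlapping limits (from 114 to 112 FPKM). Targets of Nrf2 gave 3 higher and 4 lower of 33, with the glutathione transferase Gsta4 (from 72.2 to 29.4 FPKM) lowest. Of 50 chromatin regulators 6 were higher, with the Polycomb methyltransferase Ezh1 (from 7.32 to 12.4 FPKM) opposite to Ezh2, and 9 were lower, with Hmga2 (from 86.1 to 53.9 FPKM) and Hmgb2 (from 139 to 82.3 FPKM). Of 19 reference genes 3 were lower apart (Gapdh, Pgk1 and Tfrc) and B2m was higher (from 348 to 447 FPKM), while Ppia (from 2477 to 2523 FPKM) and Rplp0 (from 1473 to 1562 FPKM) had overlapping limits.

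The lowest rows included products of haematopoietic, neuronal, placental and epidermal gene families. Of 26 genes in a list put together from these families after earlier results were known, 10 were expressed and 8 were lower apart, so their count is no evidence of direction. Sprr1a, a cornified envelope protein, stood at 89.5 FPKM (61.9998 to 89.9) with siNS and 8.67 FPKM (5.64 to 10.1) with siFoxk1. The neurofilament genes Nefl (from 109.9 to 11.4 FPKM) and Nefm (from 18.7 to 3.15 FPKM), the proliferins Prl2c2 (from 9.35 to 0.524 FPKM) and Prl2c5 (from 3.46 to 0.624 FPKM), the granzymes Gzmd (from 11.7 to 1.31 FPKM) and Gzme (from 32.8 to 9.47 FPKM) and the keratin Krt19 (from 33.3 to 8.303 FPKM) were lower apart, and the filament protein Nes had overlapping limits (from 250.1 to 268 FPKM). Other rows among the 20 lowest were Stmn4 (from 14.97 to 2.305 FPKM), a stathmin-like regulator of microtubules, Prrg4 (from 50.04 to 10.6 FPKM), the G-protein subunit Gna11 (from 66.8 to 18.3 FPKM), the immune receptors Havcr2 (from 5.46 to 0.8096 FPKM) and Tigit (from 11.5 to 2.79 FPKM), the mast cell protease Mcpt8 (from 34.95 to 9.61 FPKM) and the spectrin-binding Add2 (from 9.72 to 2.17 FPKM). Cfl2, the muscle cofilin, was also among them (from 59.2 to 17.02 FPKM), but its FPKM lay above its own upper limit in both libraries. The FPKM of Prl2c2 lay above its own upper limit in the control library.

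The 20 highest rows named above were joined by the carbonic anhydrase Car3 (from 30.2 to 193 FPKM), the natriuretic peptide clearance receptor Npr3 (from 0.827 to 8.58 FPKM), the retinaldehyde reductase Dhrs3 (from 2.801 to 17.6 FPKM), the collectin Colec10 (from 0.998 to 8.15 FPKM) and Islr (from 37.7 to 159.9 FPKM). A small number of abundant transcripts made up much of the total difference. Rows higher apart gained 21537 FPKM in all and rows lower apart lost 16296 FPKM, and the 15 largest made up 31.8% of each sum. Sparc (from 1186 to 1870.3 FPKM), Igfbp7 and Mgp (from 409.5 to 688 FPKM) were among the gains, the FPKM of Mgp lying above its own upper limit in both libraries. Among the losses were Lgals3 (from 614 to 319 FPKM), Tnfrsf12a (from 377 to 171 FPKM), Mif (from 891 to 507 FPKM), Hspb1 (from 1104 to 723 FPKM) and Eif5a (from 819 to 561 FPKM), and Mif too lay above its own upper limit in both.

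In the starved library, which shares its control with the comparison above, the same genes had levels of their own. Thbs1 stood at 56.6 FPKM (47.5 to 65.6), Acta2 at 110.03 FPKM (85.9 to 128), H19 at 142 FPKM (117 to 166) and Igf2 at 0.845 FPKM (0.626 to 1.06), each below its control level. Dhrs3 stood at 14.7 FPKM (12.1 to 17.3), above the control and near the knockdown level. Foxk1 itself stood at 16.1 FPKM (13.3 to 18.9) after starvation, above both fed libraries. Tnfrsf12a stood at 80.6 FPKM (61.1 to 99.996), below both. Since the control is shared, no overlap between the comparisons is given.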

How the data were processed

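Per the file headers, the authors deposited a mean FPKM with lower and upper 95% limits for 22989 gene rows in each RNA library. Per the submitters' processing notes, the tools named are Cuffdiff, Cufflinks 2.1.1, Bowtie2 2.1.0 and TopHat2 2.0.9, with mm9 as the build and no roles given. Whether a mean pools replicates, how the limits were made and the read depth are not given in these sources, so precision rests on the limits, whose median width to either side was 17.6% (control) and 19.2% (knockdown) of the value at 5 FPKM or more.

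Groups follow the sample titles. Left out were 364 combined rows, 388 rows of 161 repeated symbols, 638 short RNA rows and Zzz3, whose knockdown limits were in the wrong order. The deposited FPKM were not rescaled. With 1 library a group, differences are log2((knockdown FPKM + 1)/(control FPKM + 1)), which understates low genes, and calls use non-overlapping limits. No test was run, and p-values cannot be given. In 291 of the rows used, a mean lay outside its own limits.

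The genes described and the 46 gene lists and 9 marker lists were chosen with earlier results of these data known. Of 1849 listed genes, 1790 matched a single row (11 through an older symbol of RefSeq assembly GRCm38.p6), 1491 were expressed, and 92 stand in more than 1 list. Genes were named from the lists and from the 20 highest and 20 lowest differences among rows at 5 FPKM or more with limits apart. They were also named from the 15 largest gains and losses of FPKM with limits apart, and where a row crossed from under 1 to 5 FPKM. Some genes that the rule names are not reported here. Promoters came from the RefSeq table of GRCm38.p6, where 8710 of 10906 rows matched. Motifs were searched on both strands, and the E2F letters were added after the data were seen. Printed promoters are those of the candidate gene with the largest difference. Candidates had limits apart in the main direction of their list and a single promoter that held every motif put in capitals. Genes of 1 chromosome were left out of this choice. Acta1 and Klhl41 were each the only candidate for their pair of motifs. Peak regions were not joined to genes, for want of an mm9 annotation. Alternatives covered the pseudocount, filter, scaling, row choice, fold and gap between limits. Scripts (Python 3.11.15, numpy 2.4.6, pandas 2.3.3, matplotlib 3.10.9) were tested on simulated data.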

Additional observations from a re-analysis of the deposited data

How the results depend on the processing

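The counts of 2-fold rows depended on how low values were treated. With a pseudocount of 0.1 there were 369 rows higher and 223 lower, with a pseudocount of 5 there were 102 and 40, and with a 1.5-fold threshold 788 and 632, against 239 and 122. When a gap of 10% between the limits was asked for, the count of rows lower apart was 513 in place of 798. The count of rows higher apart was then 689 in place of 996. The 4 counts stayed within 1.5 times of their value under the other alternatives run (other filters, 2 rescalings by 0.9975 and 0.9947, combined and short RNA rows kept, rows with a mean outside its limits left out). In single lists, the gap moved the count of members higher by over 1.5 times in 5 of 48 lists and the count lower in 17. The count lower fell from 15 to 8 in recombination repair, 7 to 4 in ERK output, 7 to 3 in heat shock, 6 to 2 in immediate early genes, 4 to 1 in the proteasome and 4 to 0 in ribosome assembly, and by 1 or 2 genes in the other 11. The count higher fell from 8 to 5 in autophagy, 7 to 3 in the lysosome, 6 to 3 in serine and amino acid response, 4 to 2 in myogenic factors and 1 to 0 in lipid synthesis. Replication kept 26 of 34 lower, mitotic kinases 25 of 34 and kinetochore genes 32 of 43. Both rescalings moved the count lower from 1 to 2 in the Foxk and Sin3 list and in the lysosome. Of the 48 list medians, that of the proliferins, granzymes and cornified genes alone left the range set by the median of its members' limits, from -2.07 to -1.39 with a pseudocount of 5 and to -0.12 with no filter, but others moved by over 0.3. With no filter, which adds silent genes, CDK inhibitors went from -0.48 to 0.00, fibrillar collagens from 0.71 to 0.20, matrix glycoproteins from 0.71 to 0.18 and the thin filament from 0.68 to 0.30. The thin filament was at 0.31 with a pseudocount of 5, and the thick filament went from 0.17 to 0.62 at 5 FPKM or more. The proliferin list was at -2.42 with a pseudocount of 0.1, and the smooth muscle markers (1.44) were at 1.85 and 1.04 with pseudocounts of 0.1 and 5. No gene called apart changed sign, but a pseudocount cannot change a sign and rescalings this small could hardly do so. Of 1513 single-gene differences, 38 moved with a pseudocount of 0.1 and 65 with a pseudocount of 5. No paired analysis was possible because each group is 1 library, so no replicate could be left out either.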

Other observations

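The following genes outside the lists differed by 2-fold or more. They were picked with their values in view and form no group. The thrombin receptor F2r stood at 48.3 FPKM (39.8 to 56.6) with siNS and 185 FPKM (149.9 to 219) with siFoxk1, with limits apart. The vitamin D receptor Vdr (from 8.42 to 31.8 FPKM), the interleukin receptor Il1r1 (from 8.04 to 25.4 FPKM), the chemokine receptor Cxcr4 (from 17.97 to 41.5 FPKM), the glutamate transporter Slc1a3 (from 4.71 to 16.8 FPKM), the immune inhibitory ligand Cd200 (from 7.62 to 27.9 FPKM) and the ectonucleotidase Enpp1 (from 5.36 to 22.5 FPKM) were higher in the knockdown library. The mesothelial surface protein Msln (from 81.05 to 37.8 FPKM), the calcium-binding Anxa4 (from 111 to 53.4 FPKM), the adhesion molecule Alcam (from 35.9 to 17.1 FPKM), the ribonuclease inhibitor Rnh1 (from 141 to 61.4 FPKM) and the endoplasmic reticulum protein Wfs1 (from 22.2 to 6.203 FPKM) were lower. The hyaluronan synthase Has2 (from 8.67 to 19.6 FPKM), the aryl hydrocarbon receptor Ahr (from 5.87 to 14.1 FPKM) and its target Cyp1b1 (from 14.96 to 38.1 FPKM) were higher, as was the mitochondrial carrier Ucp2 (from 11.5 to 33.7 FPKM).

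Some rows at 2-fold or more are neighbours in the gene order of GRCm38.p6. Prelp, Fmod and Btg2 lie side by side on chromosome 1, and all 3 were higher, at log2 differences of 2.42, 2.13 and 1.57. Acta2 (1.98) and Fas (1.58) on chromosome 19 and Igf2 (2.74) and Ins2 (2.02) on chromosome 7 were higher side by side, while Nefl and Nefm on chromosome 14 and Prl2c2 and Prl2c5 on chromosome 13 were lower. Of 754 rows higher apart with a neighbour among the rows used, 138 (18.3%) had a neighbour that was higher apart too, against 12.6% of all 8235 such rows. For rows lower apart the share was 14.1% of 604, against 9.84%. Neighbours of Igf2 and Ins2 can share reads, and gene families such as the proliferins can share sequence, and the part of either in these shares was not tested.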
